A study of Homo sapiens with 4 samples.

Results

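The nucleolar ribosome assembly factors are proteins that turn the precursor ribosomal RNA into ribosomal subunits and that are not themselves part of the finished ribosome. The set held 58 protein-coding genes, taken by symbol from the 24940 genes of the deposited table, and all 58 symbols were found there once. They were followed in MOLM-13, an established line of human acute myeloid leukaemia with a KMT2A fusion. The study asked how loss of c-Myc and Bcl-2 together compares with loss of either one. Every group carried doxycycline-induced short hairpins delivered by lentivirus, and doxycycline was given to all of them. The shControl group held a negative control hairpin, sh-Bcl2 a hairpin against Bcl-2, sh-c-Myc a hairpin against c-Myc, and sh-c-Myc_sh-Bcl2, the double knockdown, both. Each group was 1 library from 1 cell line, with puromycin or G418 as the selection agent, so no comparison of 2 groups has a replicate check. The sources used here do not say whether the cells were single clones or mixed populations.

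Ribosome assembly starts in the nucleolus, where RNA polymerase I makes a long precursor RNA. Small nucleolar ribonucleoproteins (snoRNPs) modify this RNA, the small subunit processome folds and cuts the part that becomes the 40S subunit, and a second series of factors builds the 60S subunit. c-Myc is a transcription factor that binds E-box sequences and is known as an activator of genes of ribosome assembly, and Bcl-2 is a mitochondrial protein that blocks apoptosis.

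The libraries held 14421558 to 15691129 counts. Levels are CPM (counts scaled to library size with TMM factors), or FPKM (fragments per kilobase scaled to library size) where genes are set against each other. Ratios are log2 ratios of TMM-scaled counts, and square brackets give 95% intervals that cover counting error alone and leave out differences between cultures. A call of lower or higher was made when the ratio passed 2-fold with an interval clear of a ratio of 1, and when 1 CPM was reached in 1 library or more, a filter that 13726 genes met. The targeted MYC transcript stood at 434 CPM in shControl, 364 with sh-Bcl2, 278 with sh-c-Myc and 302 with both hairpins, and BCL2 at 120, 38.7, 112 and 44.5 in the same order. Myeloid genes that define the line (CD33, FLT3, SPI1, PTPRC, HOXA9 and MEIS1) were present in each library, with a summed level of 1033 to 1689 CPM. In RNA from bulk cells, fewer cells of a type and less RNA per cell cannot be told apart.

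The assembly factor genes were lower as a group in the c-Myc knockdown, and lay between that library and shControl in the double knockdown. In shControl they took 1.054% of all counts (95% exact binomial interval 1.049 to 1.059), with sh-Bcl2 1.049% (1.044 to 1.054), with sh-c-Myc 0.4563% (0.4528 to 0.4598) and with both hairpins 0.6133% (0.6094 to 0.6172). Of the 58 genes 57 met the CPM filter, and the lowest count among these in any library was 133. The exception was NOP2, a methyltransferase of the 60S pathway, with 10 counts in shControl. Of the exonic bases of NOP2, 54.41% are shared on the same strand with the read-through gene AC006064.6, and no ratio is drawn from it. Per length, NPM1 (383 FPKM in shControl), NCL (208) and DDX21 (192) were the most abundant, against a median of 25.73 FPKM for the members that met the filter and 4.954 for all genes that did.

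**Figure D1:**
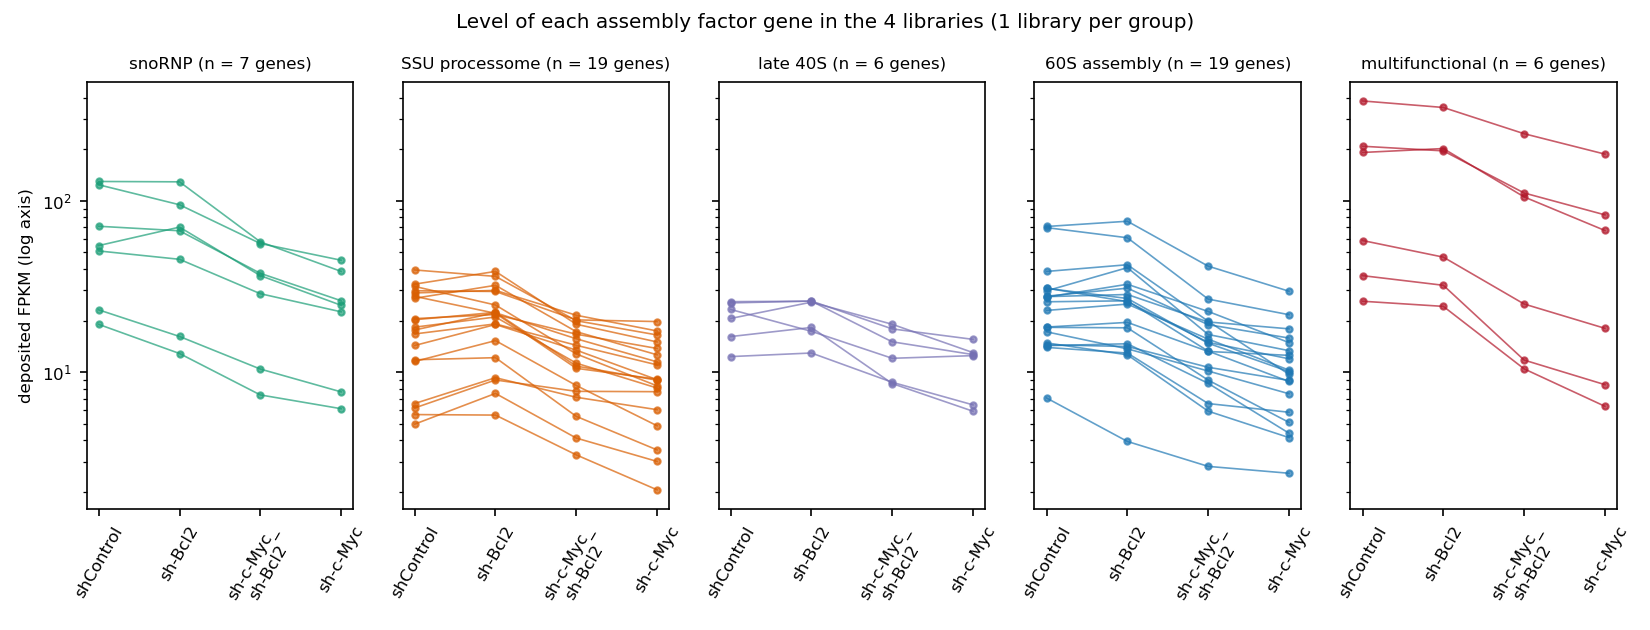
Deposited FPKM (log axis) of the 57 assembly factor genes that met the filter, 1 line per gene, with the libraries in the order shControl, sh-Bcl2, double knockdown and sh-c-Myc and 1 panel per role. Lines stay level or move in both directions from shControl to sh-Bcl2 and lie below shControl in the double knockdown and sh-c-Myc for nearly all genes, down to a member median that is -1.39 (log2 of TMM-scaled counts) in sh-c-Myc.

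In sh-c-Myc against shControl, 42 of the 57 genes were lower and 0 higher, where 9.8% of all genes were lower and 12.7% higher. The median of the assembly factors was -1.39 and that of all genes was -0.02. The ratio was below 0 for 56 of 57 genes, under TMM, total count, DESeq2 and upper quartile scaling alike, with DDX52 as the exception. The scaling moved the whole distribution: with total counts the median of all genes was 0.17 and that of the assembly factors -1.20, with 39 called lower. That scaling called 6.64% of all genes lower and 16.2% higher. The members ranged from MYBBP1A at -2.30 to DDX52 at 0.13. The 15 members that met the filter and were not called lower included 9 of the small subunit processome. With a threshold of 3-fold the number lower was 22, where 3.1% of all genes were lower.

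The 2 by 2 layout allows a model with 1 term per hairpin, which was fitted with edgeR's quasi-likelihood test over 12885 genes. The c-Myc term was lower for 55 of 57 assembly factors at a Benjamini-Hochberg adjusted p of at most 0.05 and higher for 0, against 15.9% of all genes lower and 13% higher. The median of the c-Myc term over these members was -1.15. IMP3 (edgeR adjusted p = 0.256) and DDX52 (edgeR adjusted p = 0.891), both of the small subunit processome, did not pass. The fit leaves 1 residual degree of freedom, which holds the spread between libraries and any departure from additivity together, and nothing in the labels says that the libraries came from separate cultures, so this spread may be technical. DESeq2 called 54 members lower and limma-voom 55.

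c-Myc binds the palindrome CACGTG, the canonical E-box, so the promoters of the members were searched for these letters. The windows ran from 250 bases before to 50 bases after each annotated RefSeq start (GRCh38.p14), and because the motif is a palindrome a match on one strand is a match on the other. RefSeq windows were matched by symbol for 49 of the 58 genes, and 23 of these (46.9%) held the motif. Among genes of the table that met the CPM filter, 1216 of 9571 with a window (12.7%) held it, and among all RefSeq genes with a window 8.77%. Nearer the start the difference in share was larger: 22 members (44.9%) had a motif within 50 bases before the start or in the bases after it, against 5.37% of genes that met the filter. A match is a description of the sequence and shows neither binding nor a cause.

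The following stretches carry the motif in members of each role, with the motif in capitals and every sequence written 5′ to 3′ on the strand of the gene. They were picked from genes called lower in sh-c-Myc, and the motif is within 50 bases of the start in each except LYAR. Members not called lower also had it near the start, such as LTV1 (28 bases after, ratio -0.85) and GNL2 (3 after, -0.88). The stretches therefore do not link the motif to a low ratio. Distances are those of the first base of the motif from the annotated start. FBL has it 6 bases after the start (chr19:39846356-39846385, minus strand), RRP9 5 bases before (chr3:51941892-51941921, minus strand), BYSL 28 after (chr6:41921515-41921544, plus strand), MRTO4 14 after (chr1:19251807-19251836, plus strand), DDX21 31 before (chr10:68956604-68956633, plus strand), MYBBP1A 27 after (chr17:4555340-4555369, minus strand) and LYAR 64 before (chr4:4290068-4290097, minus strand).
FBL: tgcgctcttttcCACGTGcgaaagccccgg
RRP9: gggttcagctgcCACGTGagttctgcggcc
BYSL: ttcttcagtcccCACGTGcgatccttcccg
MRTO4: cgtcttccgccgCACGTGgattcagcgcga
DDX21: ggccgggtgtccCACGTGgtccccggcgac
MYBBP1A: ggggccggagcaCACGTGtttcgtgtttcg
LYAR: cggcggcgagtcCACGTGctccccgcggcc

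UTP20, a very large protein of the small subunit pathway, shows the position in a longer context. The 250 bases just before its annotated start (chr12:101279855-101280104, plus strand) end a few bases after the motif, which begins 10 bases before the start.
UTP20: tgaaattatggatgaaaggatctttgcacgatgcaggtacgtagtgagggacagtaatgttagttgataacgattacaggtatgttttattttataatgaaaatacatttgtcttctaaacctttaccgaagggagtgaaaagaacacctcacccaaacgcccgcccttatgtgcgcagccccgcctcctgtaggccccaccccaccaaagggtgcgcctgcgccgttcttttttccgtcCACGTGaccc

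Of 26 motif positions in the windows of the members, 22 lay at 50 bases before the start or later and 17 after the start. In the first 25 bases after the start the members had 22.4 motifs per 100 genes and all genes that met the filter 1.024. In the next 25 bases the values were 12.2 and 0.522. Among the other genes of ribosome production the motif was in 20 of 60 windows (33.3%) of other assembly factors, in 4 of 63 (6.35%) of cytosolic ribosomal protein genes, in 1 of 12 (8.33%) of RNA exosome genes and in 0 of 11 of RNA polymerase I genes. With so few windows, 0 of 11 does not show that these genes lack it.

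**Figure D2:**
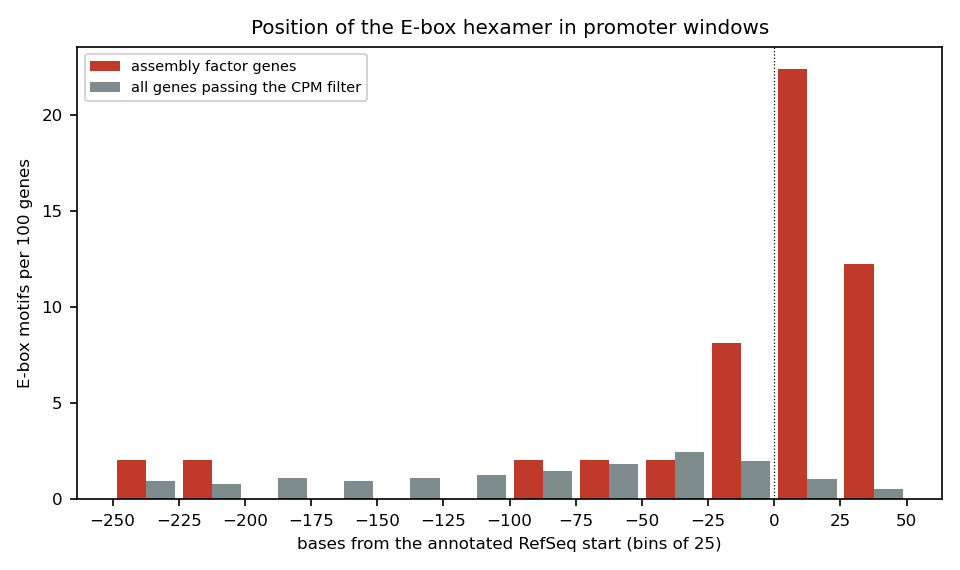
Number of CACGTG motifs per 100 genes (y axis) in bins of 25 bases from the annotated RefSeq start (x axis), for the assembly factors (red) and all genes that met the CPM filter (grey). The red bars are tallest in the first 25 bases after the start, at 22.4 per 100 genes against 1.024 in grey.

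Members with and without the motif had close medians. The median ratio in sh-c-Myc was -1.44 for the 22 members with the motif that met the filter and -1.38 for the 26 without it. Within the small subunit processome the medians were -1.40 for 8 genes with it and -0.80 for 9 without. Late 40S factors went the other way, at -1.12 for 3 with it and -1.36 for 2 without. The snoRNP genes were at -1.71 (2 genes) and -1.63 (3), the 60S factors at -1.62 (6) and -1.44 (9). The multifunctional genes were at -2.22 (3) and -1.52 (3). Over all genes the medians were -0.15 with and -0.08 without. No test was made of these differences.

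The 7 snoRNP genes were all called lower in sh-c-Myc (median -1.65). NOLC1, a chaperone that brings snoRNPs to the nucleolus, stood at 542 CPM in shControl, 532 with sh-Bcl2, 142 with sh-c-Myc and 227 with both hairpins. It was 3.81-fold lower in sh-c-Myc than in shControl [3.64 to 3.999], and the sh-Bcl2 library was level with shControl. NHP2, a small protein of the box H/ACA particles that guide pseudouridylation, stood at 30.2, 20.1, 8.53 and 11.003 CPM in the same order. Here both single knockdowns were below shControl, sh-Bcl2 at -0.59 [-0.80 to -0.37] and sh-c-Myc at -1.82 [-2.11 to -1.54]. Of the exonic bases of NHP2, 27.4% are shared with RMND5B on the opposite strand, and the sources used here do not state whether counting used strand. The other H/ACA genes, DKC1 (the pseudouridine synthase) and GAR1, were at -1.63 and -1.78 in sh-c-Myc.

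The box C/D particle, which guides 2′-O-methylation, showed the same order of libraries with one difference. FBL, its methyltransferase, was at -1.65 in sh-c-Myc and -0.41 in sh-Bcl2, and its scaffold protein NOP56 at -1.37 and -0.18. NOP58, the partner of NOP56, stood at 190 CPM in shControl, 240 with sh-Bcl2, 74.9 with sh-c-Myc and 120 with both hairpins. NOP58 was therefore highest in sh-Bcl2, at 0.34 [0.26 to 0.41], while the other 6 snoRNP genes were below 0 there. With upper quartile factors NOLC1 turned above 0 as well. All 7 snoRNP genes were lower for the c-Myc term of the 2 by 2 fit, from -1.01 for NOP56 to -1.54 for NOLC1 (edgeR adjusted p = 1.58e-05 and 5.05e-08).

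The small subunit processome was the most uneven role, with 10 of 19 genes lower in sh-c-Myc (median -1.28). RRP9, a protein of the U3 snoRNP, stood at 52.5 CPM in shControl, 40.3 with sh-Bcl2, 12.1 with sh-c-Myc and 19.96 with both hairpins. Its ratio in sh-c-Myc was -2.11 [-2.35 to -1.88]. WDR3, a subunit of the UTP-B complex, stood at 128, 129, 33.4 and 56.1 CPM, so that sh-Bcl2 and shControl were level and sh-c-Myc was 3.82-fold lower [3.47 to 4.22]. IMP4, which with IMP3 and MPHOSPH10 joins U3 to the precursor RNA, was at -1.79, yet IMP3 was at -0.31 [-0.57 to -0.04] and MPHOSPH10 at -0.85. Of the exonic bases of IMP3, 59.3% are shared with genes on the opposite strand. SNX33 shares the most, 801 of 2565.

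The set holds 5 subunits of UTP-A, a complex that binds the precursor RNA first. In sh-c-Myc these 5 ranged from -1.37 (UTP4) and -1.31 (WDR43) through -1.28 (HEATR1) to -0.91 (UTP15) and -0.80 (WDR75). Among the UTP-B subunits, UTP18 (-0.92) and WDR36 (-0.79) were well above WDR3, and the GTPase BMS1 was at -0.77. NAT10, an acetyltransferase of the small subunit RNA, was at -1.45 and the helicase DDX10 at -1.64. NOC4L, which pairs with NOP14, stood at 63.7 CPM in shControl, 62.2 with sh-Bcl2, 37.0 with sh-c-Myc and 40.6 with both hairpins. It missed the 2-fold threshold at -0.78, while NOP14 passed it at -1.36. The helicase DDX52 stood apart from the other assembly factors. It stood at 62.0 CPM in shControl, 88.9 with sh-Bcl2, 67.8 with sh-c-Myc and 73.0 with both hairpins, so it was highest in sh-Bcl2 and lowest in shControl.

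The 6 late 40S factors act on pre-40S particles on their way to the cytoplasm, and 4 were lower in sh-c-Myc (median -1.10). TSR1, which resembles translational GTPases, stood at 94.0 CPM in shControl, 105 with sh-Bcl2, 30.3 with sh-c-Myc and 47.1 with both hairpins, and was 3.10-fold lower in sh-c-Myc than in shControl [2.79 to 3.46]. BYSL, a scaffold of these particles, stood at 61.0, 60.4, 26.3 and 33.5 CPM. In both genes sh-c-Myc was the lowest library and the double knockdown next. NOB1, the nuclease that makes the final cut of the small subunit RNA, stood at 51.7, 38.0, 24.4 and 25.3 CPM, with the double knockdown level with sh-c-Myc. LTV1, a factor released before the particle matures, stood at 39.96, 49.0, 22.2 and 34.8 CPM and was not called lower in sh-c-Myc (-0.85 [-1.05 to -0.65]). The adaptor PNO1, which works with NOB1, was at -1.12 [-1.35 to -0.90], and RRP12, an export factor, at -0.89 [-0.98 to -0.81]. Of the exonic bases of LTV1, 34.8% are shared with genes on the same strand. AL049844.3 shares the most, 511 of 1847.

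Of the 19 measured 60S factors, 15 were lower in sh-c-Myc (median -1.44). MRTO4, which holds the place of the ribosomal stalk on the precursor, stood at 115 CPM in shControl, 124 with sh-Bcl2, 25.3 with sh-c-Myc and 55.4 with both hairpins. It was 4.53-fold lower in sh-c-Myc than in shControl [4.06 to 5.08], and the double knockdown lay about midway on the log2 scale, having regained 51.7% of that ratio. EBNA1BP2, a partner of other early 60S factors, stood at 68.4, 66.9, 16.7 and 31.7 CPM. NIP7, which acts in maturation of the 60S precursor, stood at 71.3, 72.0, 19.3 and 40.4 CPM. All of these had sh-c-Myc lowest and the double knockdown next, and sh-Bcl2 was level with shControl for EBNA1BP2 and NIP7 and slightly above it for MRTO4 (0.11 [0.01 to 0.21]).

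The PeBoW complex, which is needed to process the large subunit RNA, did not move evenly in sh-c-Myc. BOP1 was at -1.88 [-1.97 to -1.78] and PES1 at -1.80 [-1.93 to -1.68], whereas WDR12 was at -0.74 [-0.83 to -0.64]. WDR12 stood at 175 CPM in shControl, 184 with sh-Bcl2, 105 with sh-c-Myc and 119 with both hairpins, and it was the least lowered of the 60S factors. All the same, WDR12 passed the c-Myc term of the 2 by 2 fit at -0.64 (edgeR adjusted p = 0.00183). The nucleolar GTPase GNL3 (nucleostemin) was at -1.44, GTPBP4 at -0.998 and GNL2 at -0.88. RRP1B was at -1.73 and its relative RRP1 at -1.44, NOC2L at -1.56 and its partner NOC3L at -1.34, and RRS1, which helps load the 5S particle, at -1.35. NOP16 was at -2.02 and WDR74, a nucleolar WD-repeat protein, at -1.64. LAS1L, a nuclease of the large subunit precursor, was at -1.39, and the helicases DDX18 and DDX56 at -1.07 and -0.81.

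The 6 multifunctional nucleolar proteins were all lower in sh-c-Myc, with the lowest median of the 5 roles (-1.79). MYBBP1A, a Myb-binding nucleolar protein, stood at 239 CPM in shControl, 207 with sh-Bcl2, 48.4 with sh-c-Myc and 72.2 with both hairpins. It had the lowest ratio to shControl among the members both with sh-c-Myc alone and with both hairpins. LYAR, a zinc finger protein, stood at 63.2, 58.1, 13.5 and 24.0 CPM. In both genes sh-c-Myc was the lowest library, and sh-Bcl2 lay somewhat below shControl for MYBBP1A (-0.21 [-0.28 to -0.14]) and was level with it for LYAR (-0.12 [-0.26 to 0.01]).

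NPM3, a relative of NPM1, was at -1.89 [-2.10 to -1.68]. The abundant members gave the narrowest intervals. NPM1, a histone chaperone that organises the nucleolus, stood at 1544 CPM in shControl, 1393 with sh-Bcl2, 664 with sh-c-Myc and 936 with both hairpins. NCL (nucleolin), which binds the precursor RNA, stood at 1520, 1407, 531 and 763 CPM. The helicase DDX21 stood at 1013, 1052, 312 and 525 CPM. The sh-c-Myc library was the lowest for these genes, at -1.22 [-1.25 to -1.18] for NPM1, -1.52 [-1.55 to -1.48] for NCL and -1.70 [-1.75 to -1.65] for DDX21. NPM1 has 45 named pseudogenes in GENCODE 29, of which 10 were in the table with 91 counts together in shControl. How many reads NPM1 shares with them was not tested.

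**Figure D3:**
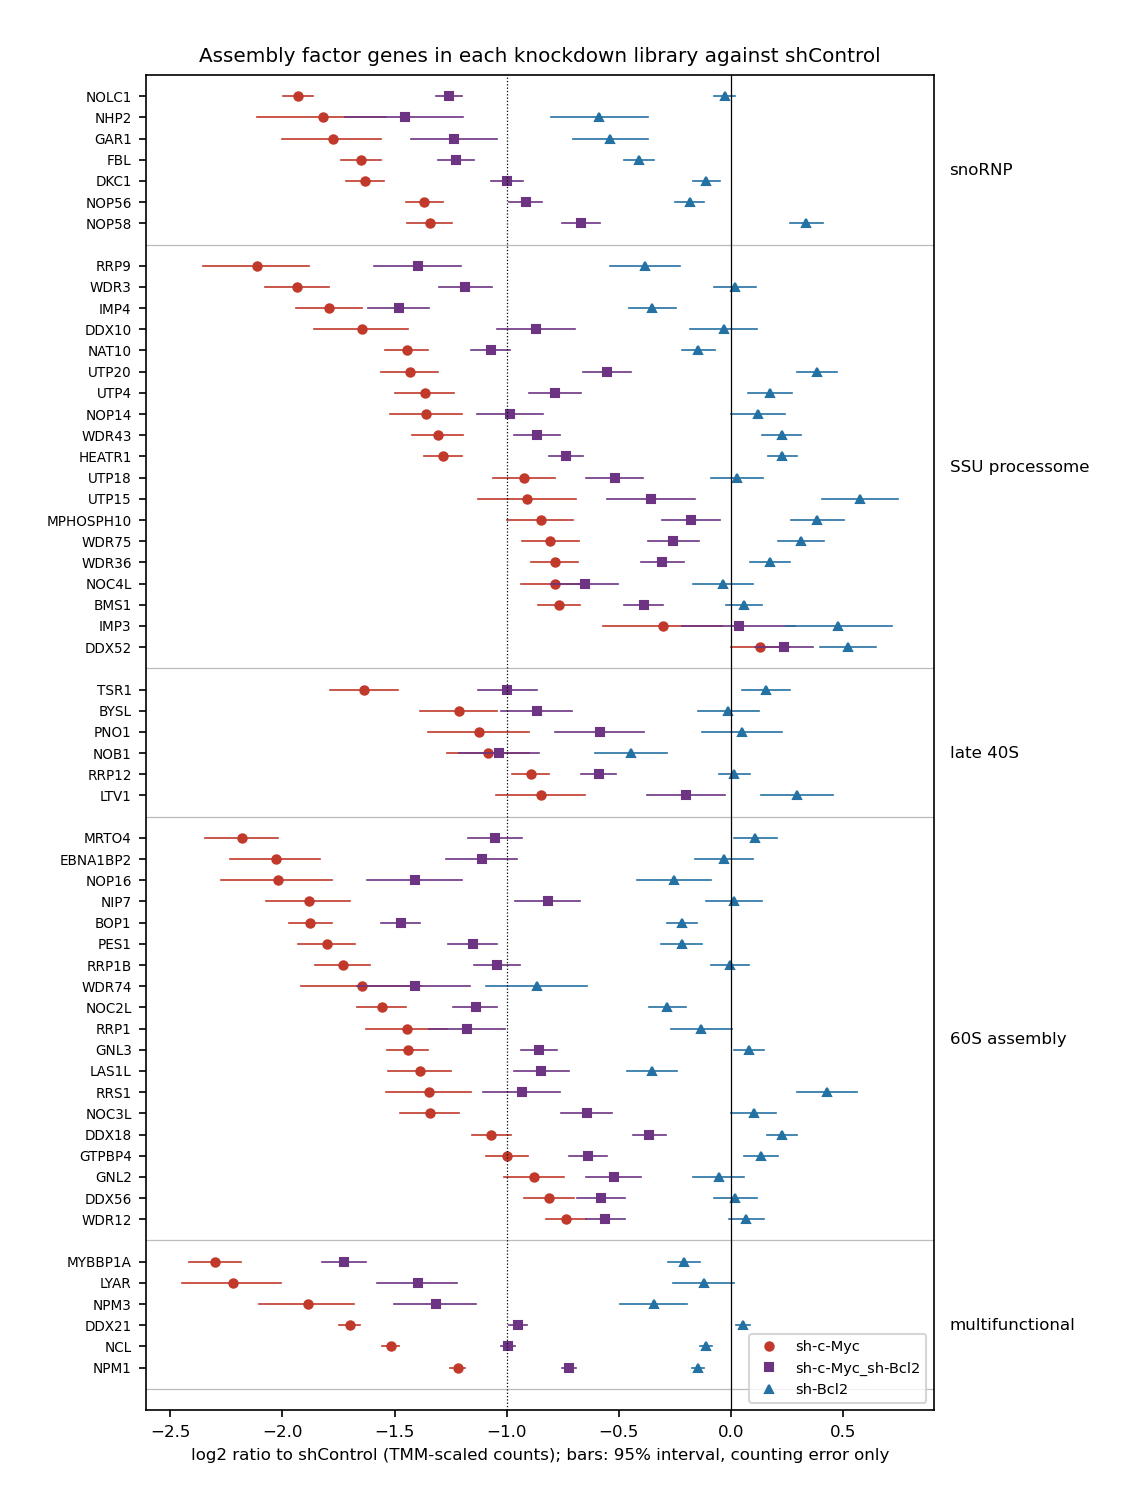
Log2 ratio to shControl (x axis) of each assembly factor gene (rows, by role and ordered by the sh-c-Myc ratio) in sh-c-Myc (red circles), the double knockdown (purple squares) and sh-Bcl2 (blue triangles); bars are 95% intervals for counting error, and the dotted line marks 2-fold lower. Red circles run from -2.30 (MYBBP1A) to 0.13 (DDX52), purple squares lie to their right, and blue triangles lie on both sides of 0.

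In sh-Bcl2 against shControl, 0 of 57 assembly factors were lower and 0 higher, where 2.16% of all genes were lower and 2.46% higher. The median was 0.01, and the members spread on both sides of 0, from WDR74 at -0.86 [-1.09 to -0.64] to UTP15 at 0.57 [0.41 to 0.74]. Intervals lay above 0 for 21 members, below 0 for 19 and held 0 for 17. Such intervals narrow as counts rise, and the members were more abundant than all genes (median 25.73 against 4.954 FPKM in shControl). Over all genes these intervals were not counted, so the numbers do not show a response particular to the members. In the 2 by 2 fit by edgeR the Bcl-2 term called 0 members lower and 0 higher, against 0.21% and 0.109% of all genes, with 16 of 57 members and 1185 of 12885 genes at an unadjusted p below 0.05. DESeq2 and limma-voom called 0 in both directions, and upper quartile factors called 1 higher, UTP20.

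By role, the counts on each side of 0 in sh-Bcl2 were as follows, beside 6861 genes below and 6865 above 0 among all that met the filter. Of the snoRNP genes 6 of 7 were below 0 (median -0.18), and of the multifunctional genes 5 of 6 (median -0.14). Of the small subunit processome 14 of 19 were above 0 (median 0.17), among them all 5 UTP-A subunits that the set holds. Of the late 40S factors 4 of 6 were above 0 (median 0.03), and of the measured 60S factors 9 of 19 (median -0.00). The difference between roles was not tested. UTP20 stood at 122 CPM in shControl and 159 in sh-Bcl2, a ratio of 0.38 [0.29 to 0.47], and MPHOSPH10 at 70.3 and 91.8. The UTP-A grouping was singled out after its values were seen. Some members close to 0 had the other sign under another scaling: BYSL and RRP1B with total counts, and these with DDX10, EBNA1BP2, NOC4L and NOLC1 with upper quartile factors.

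GC content moved with these ratios. Among the 57 members the log2 ratio in sh-Bcl2 was lower at higher transcript GC (Pearson r = -0.53, Spearman rho = -0.59, across genes of the same libraries, which are not independent replicates). Over 10739 genes with at least 50 counts on average the coefficients were -0.32 and -0.36. Of the 29 members with GC of at most 48.4%, 22 were above 0 in sh-Bcl2 (median 0.08), and of the 28 with higher GC, 21 were below 0 (median -0.16). With the GC and length trend of all genes removed, 30 members were below 0 and 27 above, and 10 members had the other sign. For sh-c-Myc the coefficients with GC were -0.36 and -0.41 in the members and 0.01 and 0.01 over all genes. For the double knockdown against shControl they were -0.59 and -0.63, and -0.17 and -0.19 over all genes. For the double knockdown against sh-c-Myc they were -0.28 and -0.32, and -0.30 and -0.33 over all genes. With the trend removed, the members' median in that last comparison was 0.46 and 57 were above 0. The part of GC content in the counts by role was not tested.

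**Figure D4:**
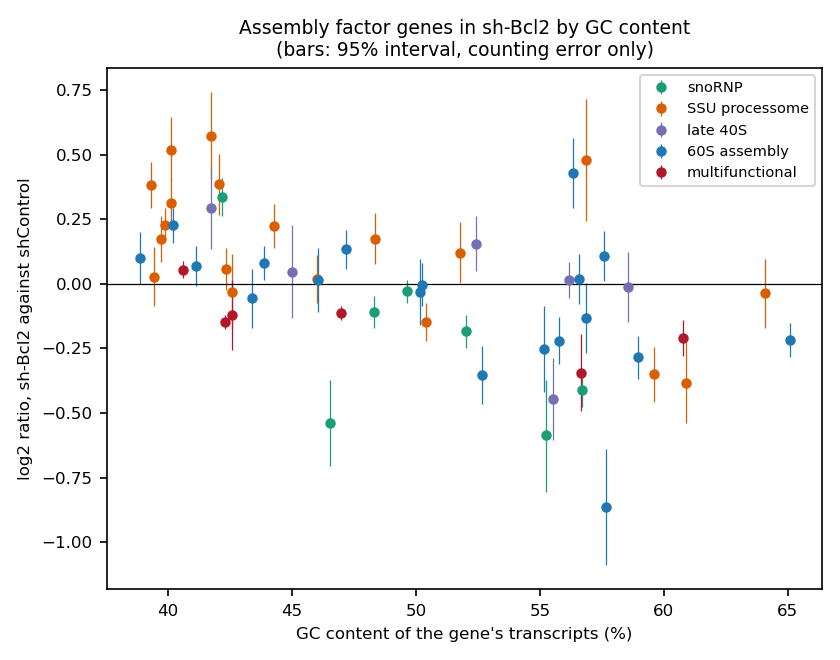
Log2 ratio of sh-Bcl2 to shControl (y axis, bars are 95% intervals for counting error) against the GC content of each gene's transcripts in percent (x axis), for the 57 members coloured by role. Genes of the small subunit processome below 48.4% GC lie mostly above 0, and genes of higher GC lie mostly below it.

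In the double knockdown against shControl, 21 of 57 assembly factors were lower and 0 higher, where 5.95% of all genes were lower and 7.11% higher. The median was -0.87. By role, 4 of 7 snoRNP, 4 of 19 small subunit processome, 1 of 6 late 40S, 9 of 19 measured 60S and 3 of 6 multifunctional genes were lower. The double knockdown lay between sh-c-Myc and shControl for 55 of the 57 genes, a count that was not made over all genes. IMP3 (0.03 [-0.22 to 0.29]) and DDX52 (0.24 [0.11 to 0.37]) were above shControl.

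Against the c-Myc knockdown alone, all 57 measured members were above 0 in the double knockdown (median 0.54, all genes 0.03), though NOB1 turned below 0 with total counts and with upper quartile factors. Only MRTO4 (1.13 [0.96 to 1.30]) and NIP7 (1.07 [0.87 to 1.27]) passed 2-fold, which 1.65% of all genes did in that direction and 4.85% in the other. NIP7 shares 20.1% of its exonic bases with COG8 on the opposite strand, and with total counts 1 member passed. The interval lay above 0 for 53 members. Of all 13726 genes, 7224 had a ratio above 0, and how many had an interval above 0 was not counted. In the same comparison the MYC transcript was at 0.12 [0.06 to 0.18] and 5 of 10 proliferation genes were higher (median 1.01), and the part of either in the members' ratios was not tested. The smallest ratios were those of NOB1 (0.05 [-0.16 to 0.26]), DDX52 (0.11 [-0.02 to 0.23]) and NOC4L (0.13 [-0.03 to 0.30]).

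The share of the sh-c-Myc log2 ratio that the double knockdown regained was computed for the 42 members lower in sh-c-Myc. It had a median of 35.4%, with quartiles of 27.8% and 42.7%. NOB1 was the lowest at 4.46% and DDX18 the highest at 65.9%. The share divides the ratio of the double knockdown to sh-c-Myc by that of shControl to sh-c-Myc. The sh-c-Myc library therefore enters both terms, and an error in it moves both. The 42 members were also selected for a low value in sh-c-Myc, which by itself favours a positive share. No share was computed for other genes called lower, so the median has no background.

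The c-Myc hairpin can also be read on the Bcl-2 knockdown background, from libraries that the first comparison did not use. In the double knockdown against sh-Bcl2, 18 of 57 members were lower and 0 higher, where 3.61% of all genes were lower and 5.19% higher. The median was -0.87, and all 57 measured members were below 0, from MYBBP1A at -1.52 to DDX52 at -0.28, under each of the 4 scalings. The same 18 genes had been lower in sh-c-Myc against shControl, among them NOLC1, RRP9, WDR3, TSR1, MRTO4, EBNA1BP2, DDX21, LYAR and MYBBP1A. Over all genes 299 (2.18%) were lower for the c-Myc hairpin on both backgrounds. The members' ratios on the 2 backgrounds had a Pearson r of 0.78 and a Spearman rho of 0.74 across 57 genes, near those over 10739 genes (0.80 and 0.78).

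**Figure D5:**
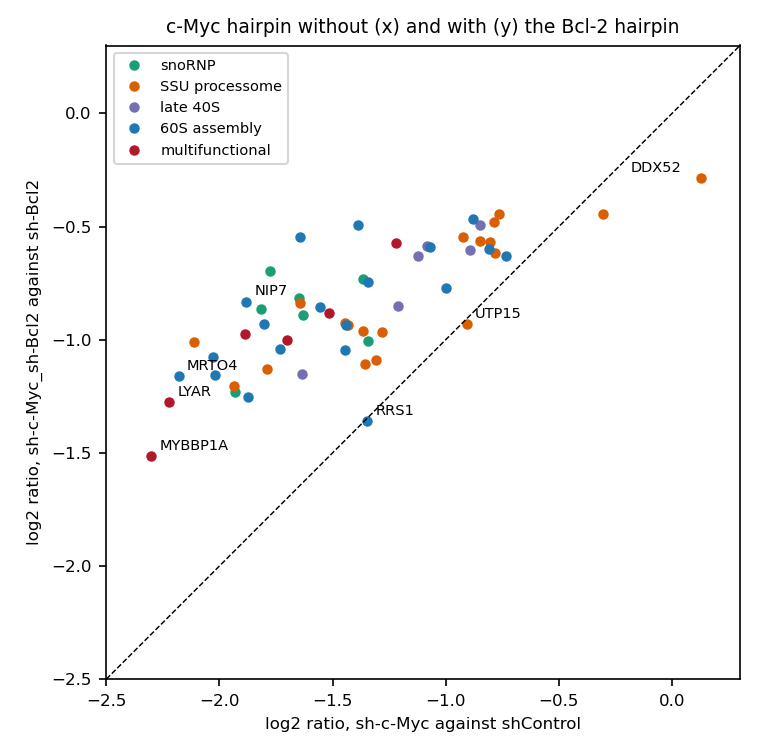
Log2 ratio of the double knockdown to sh-Bcl2 (y axis) against that of sh-c-Myc to shControl (x axis) for the 57 members, coloured by role; the dashed line marks equal ratios. All points but UTP15, IMP3, RRS1 and DDX52 lie above the line, so that 53 members differed less from their reference on the Bcl-2 knockdown background.

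The ratio for the c-Myc hairpin was nearer to 0 on the Bcl-2 knockdown background for 53 of the 57 members. This too was not counted over all genes. Written as the departure from additivity, that is the double knockdown ratio minus the ratios of both single knockdowns, the members had a median of 0.51 and all genes 0.05. The counting interval of the departure lay above 0 for 51 members and below 0 for 1, DDX52, against 29.1% of all genes above 0 and 2582 of 13726 below 0. With total counts the members' median was 0.38. A positive departure was not particular to the members. Its median was 0.37 in other assembly factors, 0.42 in RNA polymerase I genes, 0.50 in cytosolic ribosomal protein genes and 0.28 in RNA exosome genes. It was 0.99 in proliferation genes, 0.56 in granule genes and -0.55 in monocyte and macrophage markers. The interval lay above 0 for 68 of 79 cytosolic ribosomal protein genes. WDR74, MRTO4, NIP7, GAR1 and RRP9 had departures above 1, while UTP15 (-0.02 [-0.30 to 0.26]) and RRS1 (-0.01 [-0.26 to 0.23]) were additive within counting error. Without replicate libraries, the spread between cultures and the departure cannot be told apart.

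The other genes of ribosome production were lower in sh-c-Myc to a smaller extent. Of 70 other assembly factors 36 were lower (median -1.01), from RRP15 at -1.88 to DDX47 at 0.09. Of 15 RNA polymerase I genes 6 were lower (median -0.79), with CD3EAP, a subunit of the enzyme, at -2.39 and TAF1B, of its promoter factor, at 0.02. Of 79 cytosolic ribosomal protein genes 23 were lower (median -0.79), from RPL36 at -1.77 to RPS27 at 0.11. Of 14 measured genes of the RNA exosome, which trims precursor RNA, 3 were lower (median -0.57), from EXOSC5 at -1.95 to EXOSC10 at -0.20. Against the c-Myc knockdown, their medians in the double knockdown were 0.30, 0.35, 0.19 and 0.27. In the 2 by 2 fit by edgeR the c-Myc term was lower for 53 of 70, 10 of 15, 36 of 79 and 6 of 14 of these genes and higher for 0. The difference between the lists was not tested.

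Genes of cell division and of maturing myeloid cells also differed between the libraries. Of 10 proliferation genes 8 were lower in sh-c-Myc (median -1.47) and 0 in the double knockdown (median -0.44), with a summed level of 3482 CPM in shControl, 3640 with sh-Bcl2, 1422 with sh-c-Myc and 2567 with both hairpins. Of 9 monocyte and macrophage markers that met the filter, 6 were higher with sh-c-Myc and 6 with both hairpins, with summed levels of 246, 366, 886 and 942 CPM in the same order, while CD68, VCAN and MRC1 had no count in shControl and sh-Bcl2. Of 5 measured granule genes 3 were higher in both, with summed levels of 2284, 1512, 4531 and 4525 CPM. The part of these genes in the level of the assembly factors was not tested. B cell markers had 38 to 82 counts per library and erythroid markers at most 9. Markers of fibroblasts, endothelium and epithelium had 1663 counts in shControl, 2680 with sh-Bcl2, 6194 with sh-c-Myc and 6478 with both hairpins. Of these only PECAM1 met the filter, and it was called higher with sh-c-Myc (1.75) and with both hairpins (1.81). In each of these libraries 6 of the 9 monocyte and macrophage markers were higher as well. The counts of this list therefore do not show cells of another type.

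The members were spread over 19 chromosomes. Of the 58 genes 7 (12.1%) contained annotated snoRNA genes, against 237 of 14791 protein-coding genes of the table (1.6%). These were NOP56 with 5, NOP58 with 4, DKC1 with 2, WDR43 and NCL with 3 each, TSR1 with 2 and GNL3 with 6. Their ratios in sh-c-Myc ran from -1.31 (WDR43) to -1.63 (TSR1 and DKC1). Exonic bases overlapping another gene exceeded 10% for 16 members, and without these 30 of 42 were lower in sh-c-Myc, a choice made after seeing the data.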

How the data were processed

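RNA-seq of 4 MOLM-13 libraries, 1 per group, was analysed from the deposited table of counts and FPKM per gene. Per the submitters' processing notes the reads were aligned to GRCh38 with HISAT2 and counted with HTSeq 0.13.5. The sources used here do not give the HISAT2 version, the annotation release or the strand setting. The authors' deposited counts are raw reads per gene. The authors' deposited FPKM are scaled to gene length and library size, and the lengths they imply were whole (tolerance 0.01 base) in 100% of cases.

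Log2 ratios use TMM-scaled counts (edgeR 4.0.16 in R 4.3.3, prior count 0.5) with exact conditional binomial 95% intervals (SciPy 1.17.1). Departures from additivity have delta-method intervals. With 1 library per group no test of 2 groups is possible. The additive 2 by 2 model was fitted by edgeR's quasi-likelihood test with Benjamini-Hochberg adjustment over 12885 genes that reached 1 CPM in 2 or more libraries, at a common dispersion of 0.0211. DESeq2 1.42.0 and limma-voom (limma 3.58.1) were alternatives. The ratios and intervals were tested on simulated counts that varied by counting error alone. The 2 by 2 fit was tested on counts simulated at the common dispersion of these data. Neither simulation shows how far separate cultures differ.

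Positions, overlaps and pseudogenes come from GENCODE 29, in which all 24940 identifiers were found, and promoters from RefSeq (GRCh38.p14). GC content comes from the GENCODE transcripts. The members and all gene lists were chosen with earlier results of these data known. All 58 members could be named. Values in every library are given for 20 of them, which are the 2 lowest and the 1 highest of each role in sh-c-Myc, the 3 largest and 3 smallest ratios of the double knockdown to sh-c-Myc, and the 3 of highest FPKM in shControl. Of each further list the lowest and highest gene in sh-c-Myc is named. Other members were named to describe their complexes. Alternatives covered scaling, filters, the fold threshold, FPKM in place of counts, removal of a GC and length trend, the prior count, the tool, and, added after seeing the data, leaving out members with over 10% of exonic bases shared.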

Additional observations from a re-analysis of the deposited data

Results flagged for a closer look

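For 5 of the members given in full, the Bcl-2 hairpin went with a lower level in the cells without the c-Myc hairpin and a higher level in the cells with it, with both counting intervals excluding 0. The log2 ratio for the Bcl-2 hairpin with the c-Myc hairpin minus that without it was 0.95 for NHP2, 1.10 for RRP9, 0.64 for NCL, 0.64 for NPM1 and 0.79 for MYBBP1A. RRP9, for example, was at -0.38 [-0.54 to -0.23] in sh-Bcl2 against shControl and at 0.72 [0.45 to 0.99] with both hairpins against sh-c-Myc alone. Counting all members, 17 had this pattern, among them FBL, DKC1, GAR1, NOP56, BOP1 and PES1. The same count was not made over all genes, so 17 does not mark the pattern as particular to the members. The departure from additivity had an interval above 0 for 29.1% of all genes. With 1 library per group the difference was not tested. Among the 57 members the ratio in sh-Bcl2 was lower at higher GC (Pearson r = -0.53). With the GC and length trend removed, BOP1 had the other sign in sh-Bcl2, and the other genes named here kept theirs. The part of GC content in this pattern was not tested.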

How the results depend on the processing

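Of 183 recomputed counts and medians, 161 stayed within 1.5 times the reported count or within the members' typical counting interval. Of 600 recomputed ratios of 20 members, 431 stayed within their counting interval, 169 moved beyond it and 0 called ratios changed sign. In sh-c-Myc the median was -1.20 with total counts, -1.20 with upper quartile factors, -1.12 on log2(FPKM + 1) and -1.19 on log2(FPKM + 0.1), and 22 were lower at 3-fold (3.1% of all genes). In sh-Bcl2, 2 members (WDR74 and NHP2) were lower at 1.5-fold (5.6% of all genes). In the double knockdown against shControl, 42 were lower at 1.5-fold (14.8% of all genes) and 1 (MYBBP1A) at 3-fold (1.79%). Against sh-c-Myc, the number higher was 1 with total counts, 1 with upper quartile factors, 21 at 1.5-fold (5.92% of all genes), 0 at 3-fold (0.372%), 0 on log2(FPKM + 1), 1 on log2(FPKM + 0.1), 1 with the GC and length trend removed and 1 without members over 10% shared bases, and the median was 0.40 on log2(FPKM + 1). Against sh-Bcl2, 45 were lower at 1.5-fold (10.5% of all genes), 0 at 3-fold (1.1%) and 9 on log2(FPKM + 1), with a median of -0.75 there. In the 2 by 2 fit, upper quartile factors gave 1 member higher for the Bcl-2 term. A pseudocount draws ratios toward 0 and total counts leave out the TMM factors by construction, and the cause of the other shifts was not tested. No paired analysis was possible because each group holds 1 library, and leaving out a library was not run because the 2 by 2 fit then has no residual degree of freedom.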
